A study of Mus musculus with 22 samples.

Results

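The sortilin family of sorting receptors comprises 5 genes in the mouse, Sorcs1, Sorcs2, Sorcs3, Sorl1 and Sort1. They are read by 12 of the 45101 probe sets of the array table, and by symbol they are 5 of the 18193 genes that a probe set names alone. The family was chosen by the Sorcs1 signal, which was lower in all 3 comparisons of the study, so the values of Sorcs1 are given as a description, without a test. The other 4 members, with 9 probe sets, entered only because they belong to the same family, and for these the test across all probe sets is given. Sorcs1 has 3 probe sets, Sorcs2 has 1, Sorcs3 has 2, and Sorl1 and Sort1 have 3 each.

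RNA of cerebellar granule neurons (CGNs) from postnatal day 7 mouse pups was hybridised to 22 Affymetrix mouse expression arrays, 1 array a sample. Chd7 mutant CGNs (n = 4) were set against CGNs that the labels call wild type (n = 4). By the study's methods both carry floxed Chd7 alleles, and the mutant also carries Atoh1-Cre, which drives recombination in the granule lineage, by the study's account probably with lower efficiency in the posterior lobe. ICRF-193, which blocks the catalytic cycle of type II topoisomerases, was given at 10 µM over 12 h (n = 4), and the matching CGNs received its solvent DMSO (n = 4). Cultures with an agent labelled Smo2 (n = 3) were compared with cultures lacking it (n = 3). A Smoothened agonist that keeps granule progenitors dividing is part of the study, but the labels do not say that Smo2 is this agonist. All samples share the day 7 age. The labels write the strain as C56Bl6/J while the study's methods name C57BL/6N, and the cell type is labelled granule neuron progenitors while the titles name CGNs. The study did not separate the pups by sex. The replicates are labelled as biological, and whether they came from separate litters is not stated, so a p-value measures the spread between these samples.

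Sortilin family receptors cross the membrane once and carry outside the cell a Vps10p domain, named after the sorting receptor that takes carboxypeptidase to the yeast vacuole. They move bound proteins between the Golgi, endosomes and the cell surface, and their tails are handled by retromer, GGA proteins and clathrin adaptors. Sortilin, the product of Sort1, and SorCS2 bind proneurotrophins together with the neurotrophin receptor p75NTR, encoded by Ngfr. SorLA, the product of Sorl1, carries the amyloid precursor protein away from the endosomes in which it is cut. SorCS1 binds neurexins and takes part in placing them on the neuronal surface. SorCS3 is best known from postsynaptic sites of hippocampal neurons.

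The members differ in gene length by several fold. In the GRCm38.p6 annotation Sorcs3 spans 599 kb, Sorcs1 536 kb and Sorcs2 381 kb, whereas Sorl1 spans 160 kb and Sort1 77.5 kb. Among 10757 annotated genes with a mean signal at or above the median of all probe sets, the median length was 25.03 kb, and the members lay at the 99.2, 98.9, 97.8, 92.2 and 80.4 percentiles in the same order. Sorcs1 and Sorcs3 lie on chromosome 19 with 3 annotated genes between them, 0 of which code for a protein. Sorcs2 is on chromosome 5, Sorl1 on chromosome 9 and Sort1 on chromosome 3.

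RefSeq promoter windows of GRCm38.p6 matched 3 of the 5 members, and Sorcs2 and Sort1 were not matched. The 250 bases before the start site that these windows give for each of the 2 chromosome 19 members are shown. These long neighbouring genes differ in the CpG content of this stretch, and CG dinucleotides are in capitals. The Sorcs1 window is chr19:50678647-50678896 on the minus strand and the Sorcs3 window is chr19:48205775-48206024 on the plus strand. The Sorcs3 window ends directly before the annotated span of its gene. The Sorcs1 window lies inside the annotated span of its gene, downstream of the outermost start, so the 2 windows are not at like positions.
Sorcs1: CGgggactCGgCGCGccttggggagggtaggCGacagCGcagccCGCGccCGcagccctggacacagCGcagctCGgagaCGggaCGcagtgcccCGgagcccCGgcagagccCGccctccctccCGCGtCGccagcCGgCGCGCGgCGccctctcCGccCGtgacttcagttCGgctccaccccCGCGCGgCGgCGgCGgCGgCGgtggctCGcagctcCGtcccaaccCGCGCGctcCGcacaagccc
Sorcs3: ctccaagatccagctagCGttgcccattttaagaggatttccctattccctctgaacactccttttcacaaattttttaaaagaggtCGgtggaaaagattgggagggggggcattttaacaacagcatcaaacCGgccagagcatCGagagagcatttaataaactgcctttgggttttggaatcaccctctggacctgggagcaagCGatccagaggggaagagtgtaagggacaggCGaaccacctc
The Sorcs1 window held 41 CG dinucleotides and 79.6% G and C bases, at the 99.1 and 98.8 percentiles of 32851 windows. The Sorcs3 window held 6 CG dinucleotides, the median of all windows, and 48.4% G and C bases against a median of 52.4%. The window at the upstream start of Sorl1 lay between them, with 26 CG dinucleotides. The motif TATAAA, searched on both strands, was in none of these 3 windows and in 12.4% of all windows.

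The array signals were floored at 16, taken to log2 and quantile normalised, so every level below is a log2 signal on which 4 is the floor. Probe sets differ in how well they bind, so their levels are not set against each other. Both Chd7 probe sets were checked first. In mutant CGNs 1437745_at fell by 2.03 against control CGNs (adjusted p = 0.018, limma), while 1448026_at had a change of -0.25 (adjusted p = 0.453), and where either lies relative to the deleted part was not examined. Both were also lower in the other comparisons. Their changes in that order were -1.28 and -1.35 with ICRF-193 (adjusted p = 0.0255 and 0.00524, limma). With Smo2 they were -0.72 and -0.67 (adjusted p = 0.000223 and 0.000584). The part of lower Chd7 in the changes of the family was not tested. Replicates 1 and 2 resembled each other, as did replicates 3 and 4, in both the Chd7 and the ICRF-193 comparison, so changes are also given within these sets of like arrays. Summed levels of 8 granule lineage genes were near 16 in every group, yet they did not overlap between the 2 groups of any comparison. They were 16.14 to 16.28 in Chd7 mutant CGNs against 16.35 to 16.37 in control CGNs, 16.19 to 16.28 with ICRF-193 against 16.33 to 16.41 with DMSO, and 15.92 to 16.07 with Smo2 against 16.51 to 16.55 without it. In Chd7 mutant CGNs, against control CGNs, 6 oligodendrocyte lineage genes summed to 13.72 to 14.05 against 12.10 to 13.35, and 5 fibroblast and pericyte genes to 12.03 to 12.77 against 10.99 to 11.74. The 3 measured Y-linked genes summed to 5.58 to 8.64 in mutant CGNs, against 10.25 to 10.77 in control CGNs. Xist, which is expressed from the inactive X, had 13.55 to 13.84 in mutant CGNs, against 12.34 to 13.41 in control CGNs. A difference in the sex of the pups thus cannot be told apart from the genotype in any change of the Chd7 comparison. With Smo2, 5 genes of cycling progenitors summed to 15.17 to 15.23, against 12.61 to 12.69 without it. In Chd7 mutant CGNs they summed to 12.62 to 13.16, against 12.62 to 12.94 in control CGNs. Only Ccnd1 of these 5 passed in the mutant, where it rose by 1.05 (adjusted p = 0.00691, limma) and 3 of its 3 probe sets passed upward. This call was lost when replicate numbers were paired as a block (adjusted p = 0.0636).

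Sorcs1 was lower in Chd7 mutant CGNs, with ICRF-193 and with Smo2. On its brightest probe set, 1436662_at, the Chd7 mutant CGNs had 9.12, 8.94, 7.61 and 7.59 in replicates 1 to 4, against 9.89, 9.77, 9.99 and 10.04 in control CGNs. All mutant samples lay below all control samples, and replicates 3 and 4 of the mutant lay far below replicates 1 and 2. The means were 8.32 ± 0.83 in mutant CGNs and 9.92 ± 0.12 in control CGNs (SD, n = 4 each), a change of -1.61, or 3.04-fold lower. Within replicates 1 and 2 the change was -0.80, and within replicates 3 and 4 it was -2.41.

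With ICRF-193 the same probe set had 6.92, 6.89, 6.19 and 6.00, against 9.81, 9.67, 8.76 and 8.96 with DMSO. The groups did not overlap, and replicates 3 and 4 were lower than replicates 1 and 2 in both of them. The means were 6.50 ± 0.47 with ICRF-193 and 9.30 ± 0.52 with DMSO (SD, n = 4 each), a change of -2.80, or 6.98-fold lower. In cultures with Smo2 the values were 7.54, 7.87 and 7.30, against 9.19, 9.02 and 9.32 in cultures without it. Here too every treated sample lay below every untreated one. The means were 7.57 ± 0.29 with Smo2 and 9.17 ± 0.15 without it (SD, n = 3 each), a change of -1.61, or 3.05-fold lower.

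The summed granule lineage markers given above were lower in the same groups as Sorcs1, and their part in its values was not tested. Gene by gene, on the brightest probe set, these markers differed. With Smo2, 6 of the 8 passed downward, while Atoh1 rose by 1.74 (adjusted p = 0.000249, limma). Over all genes 20.5% were lower and 17.2% higher with Smo2. With ICRF-193 only Rbfox3 passed (-1.02), and in Chd7 mutant CGNs only Pax6 (-0.42). Counting every probe set, 2 of 5 of Pax6, 1 of 2 of Neurod1 and 1 of 2 of Zic1 passed downward in the mutant. In these bulk samples fewer cells of a type and less RNA per cell cannot be told apart. The other Sorcs1 probe sets pointed the same way. On 1425864_a_at the changes were -1.49 in Chd7 mutant CGNs, -2.04 with ICRF-193 and -1.67 with Smo2, and the groups did not overlap in any comparison, with 1 sample with ICRF-193 and 1 with Smo2 below the floor. On the dim probe set 1421509_at they were -0.74, -0.54 and -1.01, and only the ICRF-193 and DMSO samples overlapped. Groups that do not overlap were found for 10.7% of all probe sets in the Chd7 comparison (5.33% lower and 5.32% higher in the mutant). The shares were 7.61% with ICRF-193 (3.64% lower and 3.97% higher) and 41.2% with Smo2 (22.4% lower and 18.7% higher). Since Sorcs1 was chosen for this pattern, nothing is read from these counts.

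Across the 6 groups, the mean of 1436662_at was highest in control CGNs (9.92), then with DMSO (9.30), without Smo2 (9.17), in Chd7 mutant CGNs (8.32), with Smo2 (7.57) and with ICRF-193 (6.50). Samples of neighbouring groups in this order overlapped, except that all samples with Smo2 lay above all samples with ICRF-193. Whether the 3 comparisons were run together is not stated, so a difference in level between comparisons cannot be told apart from a difference between runs.

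**Figure D1:**
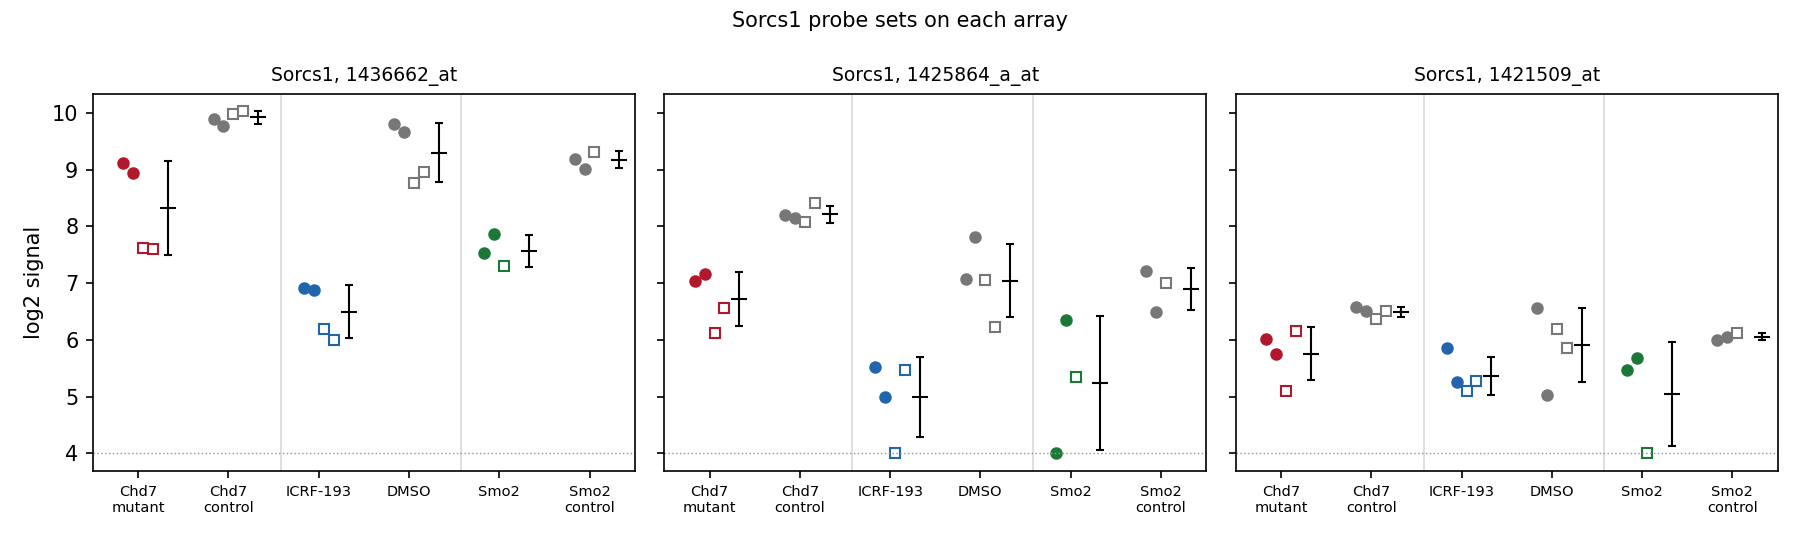
Log2 signal of the 3 Sorcs1 probe sets on each array, by group; filled circles are replicates 1 and 2, open squares are replicates 3 and 4, black marks are means ± SD, and the dotted line is the floor at 4. On 1436662_at the samples with ICRF-193 lie between 6.00 and 6.92, below the DMSO samples at 8.76 to 9.81, and the lower pair of mutant samples is replicates 3 and 4.

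Sorcs2 was higher where Sorcs1 was lower, in all 3 comparisons, and passed the test with Smo2 and with ICRF-193. Its only probe set, 1419358_at, is dim, and several samples lay below the floor. In cultures with Smo2 it had 8.05, 7.90 and 7.92, against 5.55 in replicate 2 and values below the floor in replicates 1 and 3 without Smo2. The groups were far apart, and the means were 7.96 ± 0.08 with Smo2 and 4.52 ± 0.89 without it, with samples below the floor set to 4 (SD, n = 3 each). Sorcs2 rose with Smo2 (adjusted p = 0.00633, limma). Since 2 of the 3 samples without Smo2 stood at the floor, the size of the rise is set by it. The difference was 3.44 with the floor of 16, 4.08 with a floor of 1 (adjusted p = 0.0183) and 1.96 with a floor of 64 (adjusted p = 7.88e-05). The markers of cycling progenitors given above were also higher with Smo2, and their part in it was not tested.

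With ICRF-193 Sorcs2 had 6.60, 6.64, 5.73 and 5.33, while all 4 samples with DMSO lay below the floor. Every treated sample was therefore above every DMSO sample. The mean of 6.07 ± 0.65 with ICRF-193 (SD, n = 4) was at least 4.21-fold higher than the floor of 4 at which the DMSO samples were set (adjusted p = 0.0219, limma). This call was lost when replicate numbers were paired as a block (adjusted p = 0.0946), in each fit that left out 1 sample other than ICRF-193 replicate 4 (adjusted p = 0.0521 to 0.0738), and with a floor of 1 (adjusted p = 0.0546) or 64 (adjusted p = 0.758).

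In Chd7 mutant CGNs Sorcs2 had 6.07, 6.38, 5.89 and 5.72, against 5.56 and 5.21 in control replicates 2 and 4 and values below the floor in replicates 1 and 3. The groups did not overlap. The means were 6.02 ± 0.28 in mutant CGNs and 4.69 ± 0.81 in control CGNs (SD, n = 4 each), a difference of 1.32 that did not pass the test (adjusted p = 0.17, limma). With 2 control samples at the floor its size is set by the floor too, and it was 1.86 with a floor of 1 and 0.096 with a floor of 64 (adjusted p = 0.301 and 0.896). The summed oligodendrocyte lineage and fibroblast markers given above moved the same way in this comparison. By themselves 0 of 6 and 0 of 5 of these genes passed on the brightest probe set (4 and 2 before adjustment, limma), and Cspg4 of the oligodendrocyte list had -0.07. The part of these markers in the change of Sorcs2 was not tested.

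Sorcs3, the other long gene of chromosome 19, was lower with ICRF-193 on both probe sets. On the brighter one, 1425110_at, the samples with ICRF-193 had 5.70, 6.11, 4.66 and 6.44, against 6.91, 7.25, 7.25 and 7.07 with DMSO. The groups did not overlap, but the treated samples were spread widely. The means were 5.73 ± 0.77 with ICRF-193 and 7.12 ± 0.16 with DMSO (SD, n = 4 each), a change of -1.39 (95% interval -2.27 to -0.52) that did not pass the test (adjusted p = 0.161, limma). It passed with all 22 arrays in a single fit (adjusted p = 0.0424), with a floor of 64 (adjusted p = 0.0178) and when only the brightest probe set of each gene was tested (adjusted p = 0.0452). It did not pass with the replicate block (adjusted p = 0.25) or in the other alternatives (adjusted p = 0.0593 to 0.602).

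On the dim probe set 1425111_at, 2 samples with ICRF-193 lay below the floor and the others had 4.04 and 4.21, against 5.27, 5.31, 5.92 and 5.69 with DMSO. Sorcs3 fell on this probe set (adjusted p = 0.00556, limma). The difference was -1.48 with the floor of 16, but since the samples with ICRF-193 lay at or next to the floor its size is set by it. It was -3.15 with a floor of 1 (adjusted p = 0.258) and -0.0098 with a floor of 64 (adjusted p = 0.948). The call was also lost with all arrays in a single fit (adjusted p = 0.0581).

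No change of Sorcs3 passed the test in the other comparisons. In Chd7 mutant CGNs 1425110_at had 6.00 and 5.54 in replicates 1 and 2 but 7.22 and 7.01 in replicates 3 and 4, against 6.75 to 6.99 in control CGNs. The mutant samples thus lay below the control samples in one set of like arrays and above all of them in the other, and the change was -0.46 (95% interval -1.37 to 0.45, adjusted p = 0.659). With Smo2 the change was -0.15 (95% interval -1.10 to 0.79, adjusted p = 0.835). On 1425111_at the changes were -0.38 in mutant CGNs (adjusted p = 0.791) and -1.14 with Smo2 (adjusted p = 0.193).

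**Figure D2:**
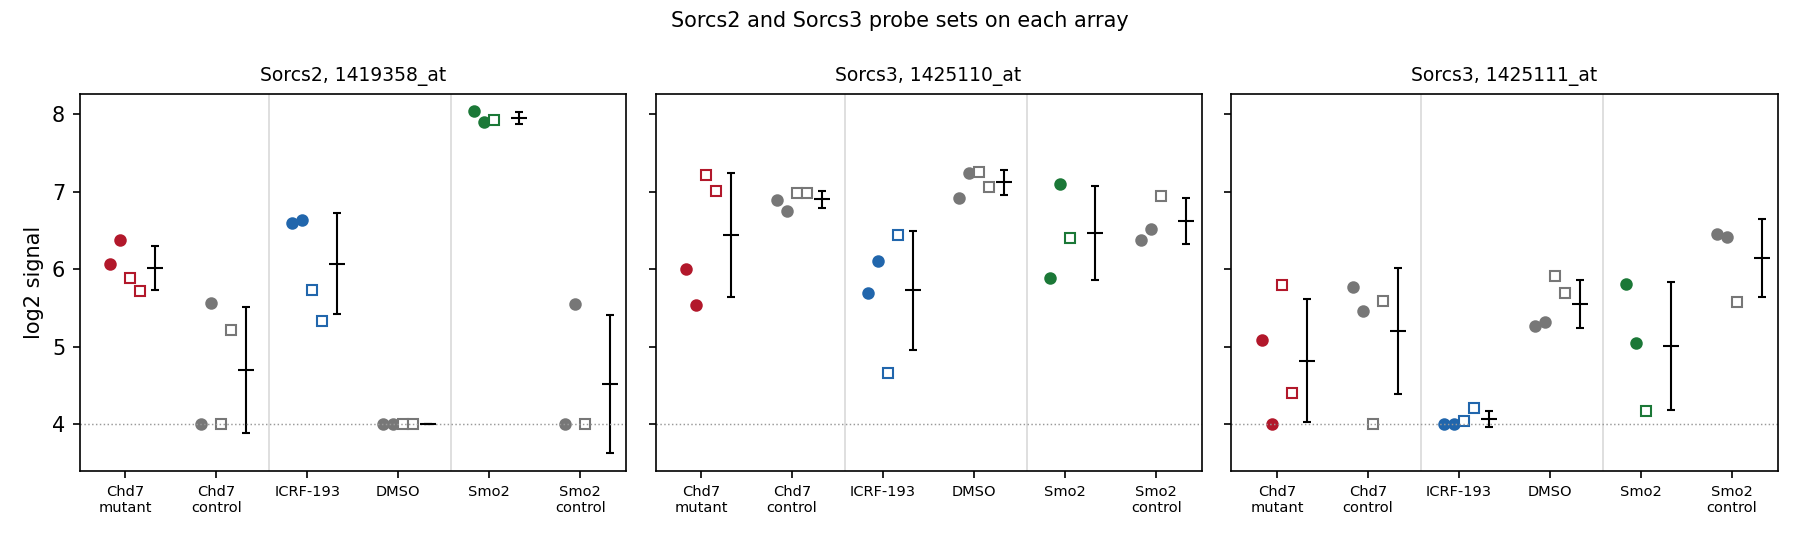
Log2 signal of the Sorcs2 probe set and both Sorcs3 probe sets on each array, with symbols as for Sorcs1. Sorcs2 stands at 7.90 to 8.05 with Smo2 and at the floor of 4 in all DMSO samples, while both Sorcs3 probe sets are lower with ICRF-193 than with DMSO.

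Sorl1 gave different pictures on its 3 probe sets. With Smo2 the dim probe set 1460390_at had 5.56, 5.63 and 5.84, against 4.97 and 4.40 in replicates 1 and 3 and a value below the floor in replicate 2 without Smo2. The groups did not overlap, and the level rose by 1.22 with the sample below the floor set to 4 (adjusted p = 0.0287, limma). The call was lost without any of the 3 samples with Smo2 or without Smo2 control replicate 3 (adjusted p = 0.0773 to 0.0956), with the methods' t-test (adjusted p = 0.0529), and with a floor of 1 (adjusted p = 0.069) or of 64, at which the probe set was at the floor on all arrays of this comparison. The probe set 1453003_at was higher by 1.05 with Smo2, with groups that did not overlap (95% interval 0.00 to 2.10, adjusted p = 0.131). The brightest probe set, 1426258_at, had a change of 0.42, with overlapping groups (adjusted p = 0.461).

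In the Chd7 comparison 1426258_at had 7.24, 6.75, 8.08 and 7.78 in mutant CGNs, against 5.85, 5.49, 7.36 and 7.52 in control CGNs. The mutant samples lay above the control samples within each set of like arrays, but not across sets. The change was 0.91 (95% interval -0.43 to 2.24, adjusted p = 0.508). The changes of the other Sorl1 probe sets were 0.15 and -0.38 in mutant CGNs (adjusted p = 0.975 and 0.784). With ICRF-193 the changes of the 3 probe sets were -0.44, 0.69 and -0.06, and none passed the test (adjusted p = 0.88, 0.533 and 0.989).

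Sort1, the shortest gene of the family, had only small changes. On its brightest probe set, 1423362_at, the cultures with Smo2 had 10.20, 10.29 and 10.12, against 10.55, 10.59 and 10.50 without it. The groups did not overlap, and Sort1 fell by 0.35 with Smo2 (95% interval -0.49 to -0.20, adjusted p = 0.00917, limma), or 1.27-fold. When arrays were centred on their medians in place of quantile normalisation the change was -0.17 and did not pass (adjusted p = 0.141). In Chd7 mutant CGNs this probe set had 10.31, 10.28, 10.38 and 10.48, against 10.49, 10.50, 10.53 and 10.68 in control CGNs. The difference of -0.18 was small but the groups were apart (95% interval -0.34 to -0.03, adjusted p = 0.224). With ICRF-193 the change was -0.01, and its 95% interval ran from -0.27 to 0.24.

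The probe set 1450955_s_at, whose suffix marks probes shared between transcripts, had 6.93, 6.79, 6.97 and 7.10 in Chd7 mutant CGNs, against 7.29, 7.48, 7.27 and 7.41 in control CGNs. All mutant samples were below all control samples, with a change of -0.42 (95% interval -0.61 to -0.22) at the edge of the threshold (adjusted p = 0.0508). It passed when only probe sets at or above the median were tested (adjusted p = 0.0287) and with the set of like arrays as a block (adjusted p = 0.0436). These sets were found from these same arrays and not from labels, so that block is no independent check. The change did not pass with the replicate block (adjusted p = 0.145) or in the other alternatives (adjusted p = 0.0519 to 0.256). The remaining Sort1 changes lay between -0.24 and 0.25, with overlapping groups and adjusted p of at least 0.592.

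**Figure D3:**
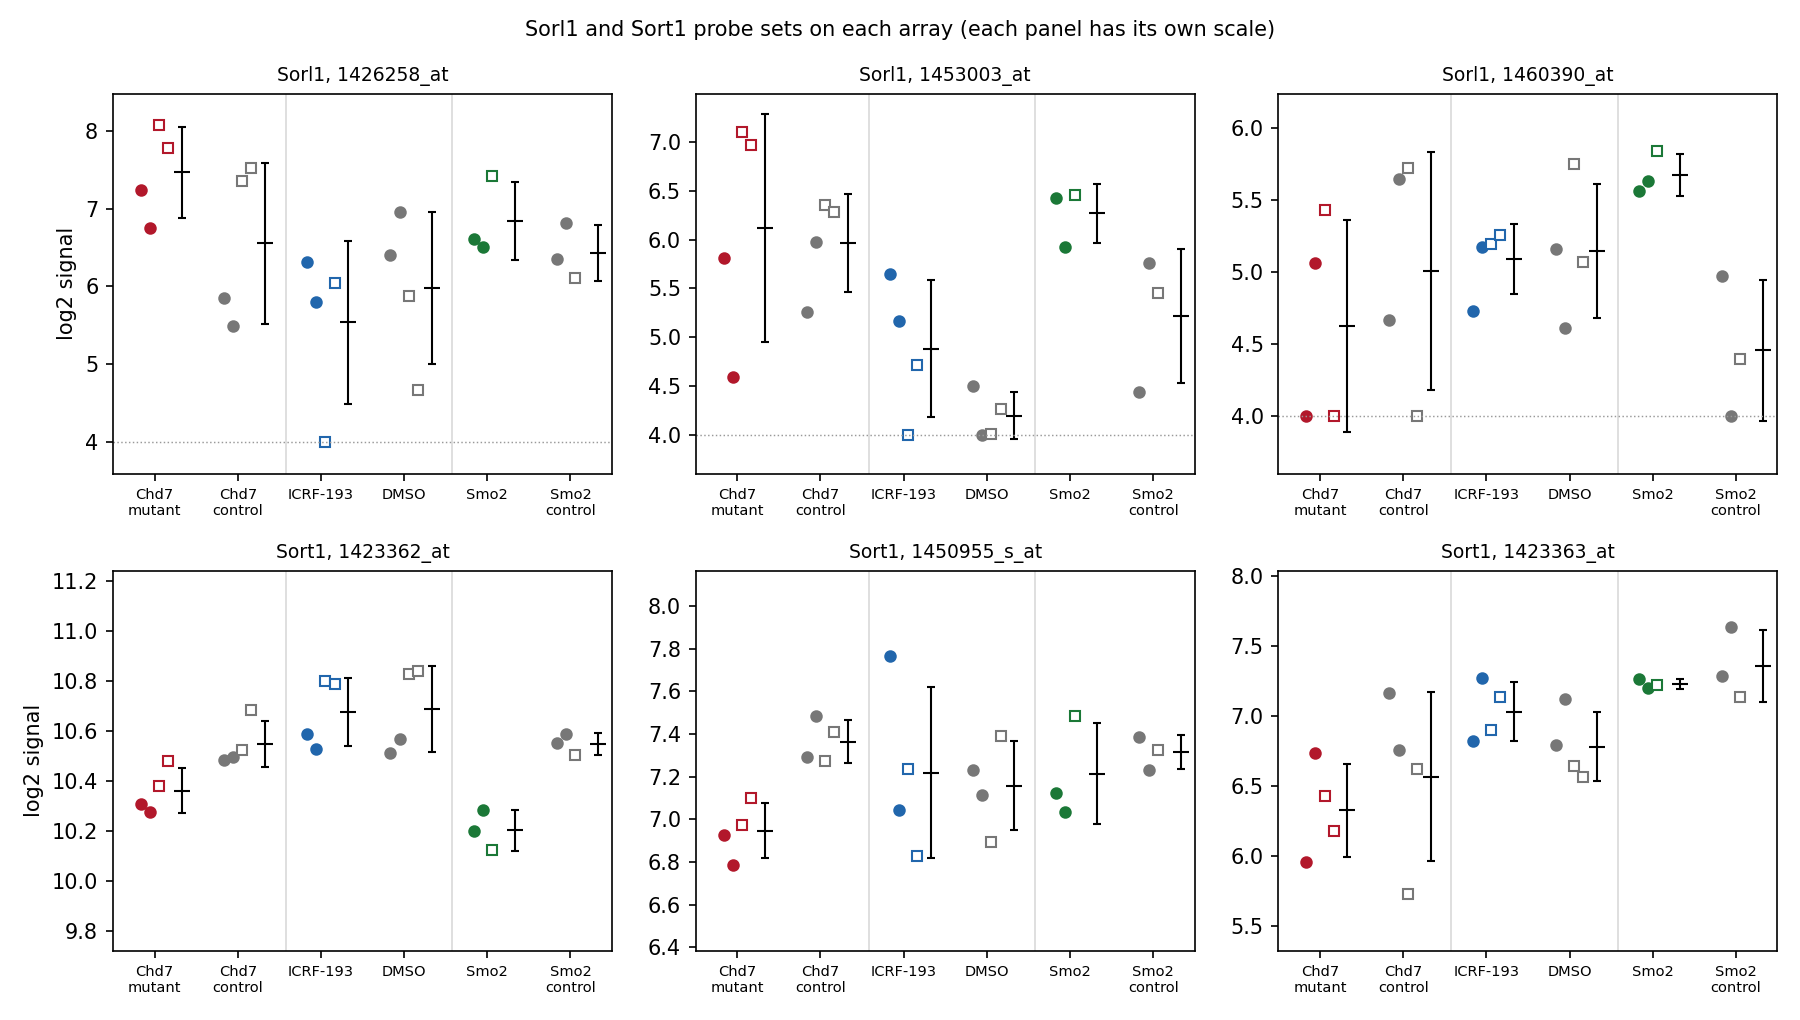
Log2 signal of the 3 Sorl1 and 3 Sort1 probe sets on each array, with symbols as for Sorcs1 and a separate vertical scale in each panel. On 1423362_at the Sort1 samples with Smo2 lie at 10.12 to 10.29, below those without it at 10.50 to 10.59.

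Of the 9 probe sets of the 4 paralogues, 0 passed the test in Chd7 mutant CGNs, where 2.76% of all probe sets passed (1.3% lower and 1.47% higher). Before adjustment 3 of the 9 had a limma p under 0.05, and the methods' t-test also gave 0 after adjustment. With ICRF-193 2 of 9 passed, Sorcs2 upward and Sorcs3 1425111_at downward, against 1.95% of all probe sets (1.16% lower and 0.786% higher). With Smo2 3 of 9 passed, Sorcs2 and Sorl1 1460390_at upward and Sort1 1423362_at downward, against 29.9% of all probe sets (16% lower and 13.9% higher). Of all probe sets that passed with Smo2, 53.5% were lower, and this share was 42.2% with arrays centred on their medians.

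**Figure D4:**
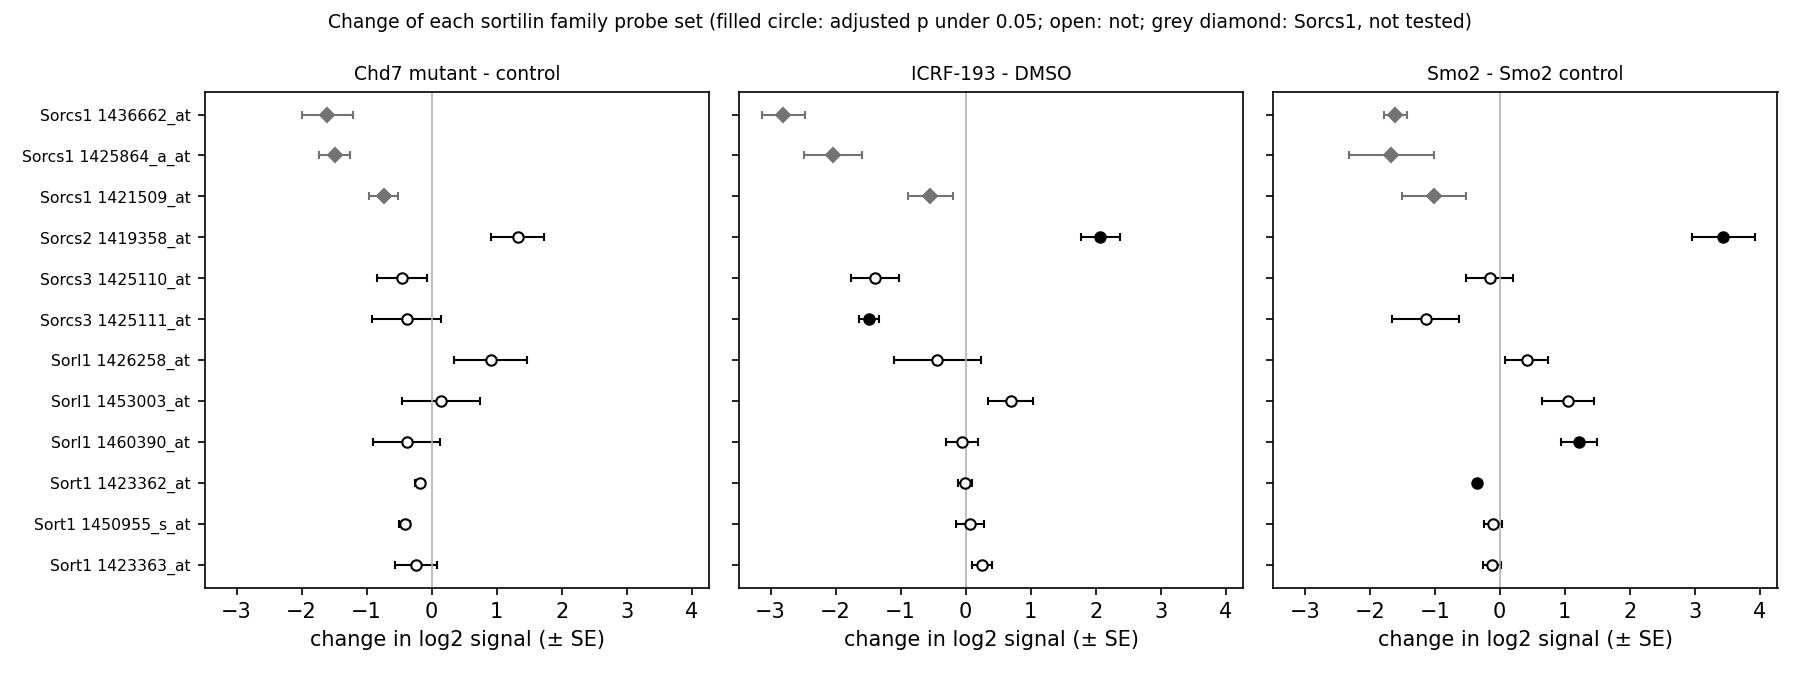
Change in log2 signal of each of the 12 probe sets in the 3 comparisons, with bars for ± SE; filled circles passed an adjusted p of 0.05, open circles did not, and grey diamonds are Sorcs1, which was not tested. Sorcs1 lies left of 0 and Sorcs2 right of 0 in every panel, and the Sort1 probe sets lie within 0.42 of 0.

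Long genes as a class were more often lower in all 3 comparisons, so the members were placed by length. Of 335 genes over 300 kb, 12.8% were lower and 3.28% higher in Chd7 mutant CGNs, 37.3% lower and 0.597% higher with ICRF-193, and 63.6% lower and 9.25% higher with Smo2. Of 7585 genes under 50 kb, 1.63%, 0.712% and 28.8% were lower in the same comparisons. The median change of genes over 300 kb was -0.11, -0.48 and -0.80. Sorcs1 lay below this median in each comparison, but it was chosen for its fall in all 3, so nothing is read from its place. Sorcs3, the longest member, had -0.46 and -1.39 on its brighter probe set in the first 2, below the median of its class, but -0.15 with Smo2, above it. Sorcs2, at 381 kb, went the other way with differences of 1.32, 2.07 and 3.44 at the floor of 16, which sets their size, and it was too dim to be counted in the class. Sorl1 and Sort1 fall in shorter classes, in which 4.36% of genes at 100 to 300 kb and 0.438% at 50 to 100 kb were lower with ICRF-193.

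**Figure D5:**
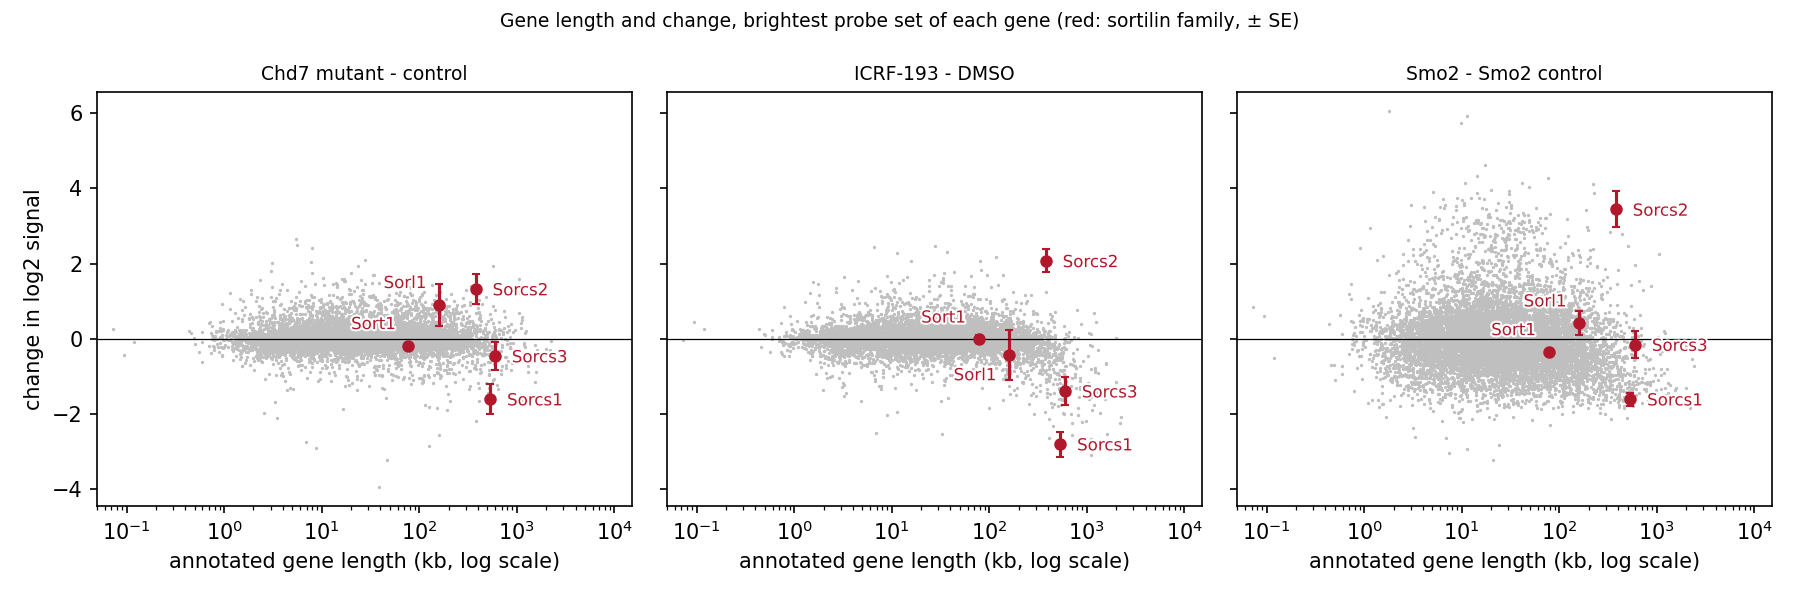
Change in log2 signal against annotated gene length (log axis) for the brightest probe set of 10757 genes in grey and of the 5 members in red (bars, ± SE), by comparison. Sorcs1 and Sorcs2 stand on opposite sides of 0 in every panel although both are longer than 300 kb, and Sort1 stays near 0.

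The profile of Sorcs1 was set against that of 10777 other genes by Pearson's r over the 22 arrays, with each comparison centred on the mean of its groups. The most similar were Kcnd2, an A-type potassium channel subunit (r = 0.96), Ptprk, a receptor tyrosine phosphatase (0.95), and Ank2, which encodes ankyrin-B (0.93). They were followed by Fgf13, which encodes a protein that binds sodium channels (0.93), and the transcription factor Sox5 (0.93). All of these were lower in the 3 comparisons and span 514 to 954 kb. Kcnd2 had changes of -1.19 in Chd7 mutant CGNs, -1.60 with ICRF-193 and -1.53 with Smo2. The arrays share 6 group means, so r mostly follows the same group differences for which Sorcs1 was chosen. Within the family r was 0.50 and 0.58 for the Sorcs3 probe sets, -0.73 for Sorcs2, 0.25, 0.22 and -0.03 for Sort1, and -0.05, -0.50 and -0.18 for Sorl1.

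Partners of the family were followed through lists of other genes, each read by its brightest probe set. Among neurotrophins and their receptors, 5 of 9 listed genes were measured under a single symbol. With Smo2, Ngfr, the p75NTR partner of sortilin and SorCS2, had 9.65 to 10.10, against 7.49 to 7.96 without it, and rose by 2.10 (adjusted p = 0.00134, limma). Ntrk2, the BDNF receptor TrkB, fell by 1.69 (adjusted p = 9.77e-05), and Ntrk3, the neurotrophin-3 receptor TrkC, rose by 0.69 (adjusted p = 0.00146). Of their probe sets, 3 of 3 of Ngfr and 3 of 8 of Ntrk3 passed upward and 4 of 8 of Ntrk2 downward, with 0 the other way. Bdnf and Ntf5, both dim, had changes of -0.17 and -0.59 that did not pass. Thus 1 was lower and 2 were higher, where 20.5% of all genes were lower and 17.2% higher with Smo2.

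With ICRF-193 Ntrk2 fell by 0.62 (adjusted p = 0.00085), though not with arrays centred on their medians (adjusted p = 0.138), and no other gene of the list passed. The change of Ngfr was 0.64 (adjusted p = 0.166). In Chd7 mutant CGNs 0 of 5 passed on the brightest probe set, though 1 of 8 Ntrk3 probe sets passed upward. Ngfr had -0.50 (adjusted p = 0.231), Ntrk3 0.93 (adjusted p = 0.123), Bdnf -0.74 (adjusted p = 0.549), Ntrk2 -0.09 and Ntf5 0.05. The shares of all genes that passed were 1.51% lower and 2.05% higher in mutant CGNs and 1.41% lower and 1.12% higher with ICRF-193.

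Ligands and cargo of the receptors were mostly lower with Smo2, where 7 of 8 measured genes passed downward and 0 upward. Over all genes, dim ones included, 20.5% were lower and 17.2% higher. Among genes at or above the median signal, 28.8% to 63.6% were lower, rising with length class. The median change of the list was -0.91, against -0.03 over all genes. Apoe, a lipid carrier bound by sortilin and SorLA, fell by 1.92 (adjusted p = 0.00124), and the neurexin gene Nrxn3, whose family SorCS1 binds, fell by 1.60 (adjusted p = 0.000295). Nrxn2 fell by 1.12 (adjusted p = 0.000642), and Grn, which encodes the sortilin ligand progranulin, fell by 0.95 (adjusted p = 0.000418). With arrays centred on their medians 5 of 8 passed, and App, the amyloid precursor gene, moved from a call of -0.25 to 0.03. Astrocyte and Bergmann glia markers, 6 genes, summed to 11.99 to 12.23 with Smo2, against 12.80 to 13.02 without it. Of these 6, 5 passed downward, but Gja1 rose by 1.56 (adjusted p = 0.000617, limma). Microglia markers, 5 genes, summed to 8.52 to 9.21 with Smo2, against 9.69 to 10.21 without it. Markers of GABAergic interneurons, 3 genes, summed to 10.23 to 10.38 with Smo2, against 11.67 to 11.73 without it. The part of these glial and interneuron markers in the changes of the cargo genes was not tested.

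With ICRF-193 Nrxn3 was the single call among the cargo genes. It had 8.80 to 9.70 against 11.50 to 11.99 with DMSO, and fell by 2.53 (adjusted p = 0.00211). The 3 GABAergic interneuron markers summed to 11.65 to 11.96 with ICRF-193, against 12.12 to 12.33 with DMSO, but none of them passed by itself. Gad1, the brightest of them, changed by -0.42 (adjusted p = 0.0567, limma), Gad2 by -0.05 and Slc6a5 by 0.10. Their part in the fall of Nrxn3 was not tested. In Chd7 mutant CGNs 0 of 8 cargo genes passed. Counts of 0 among these lists were also 0 with the methods' t-test after adjustment, and before adjustment 2 of 5 neurotrophin genes and 3 of 8 cargo genes had a limma p under 0.05 in mutant CGNs.

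Of 16 genes of retromer and the trafficking adaptors, the machinery that handles the receptors' tails, 3 were lower and 2 higher with Smo2, where 20.5% of all genes were lower and 17.2% higher. With ICRF-193 and in Chd7 mutant CGNs 0 of 16 passed by limma or the methods' t-test (4 and 2 before adjustment, limma), though 1 of 5 Snx5 probe sets passed upward in the mutant. With Smo2 Vps29 and Vps26b, core subunits of retromer, fell by 0.65 and 0.59, and Ap1g1, a subunit of the AP-1 adaptor, fell by 0.44. The sorting nexins Snx5 and Snx1 rose by 0.98 and 0.60. With arrays centred on their medians 3 were lower and 5 higher. Of 7 processing enzymes 3 were lower with Smo2, Psen2 of the gamma-secretase complex by 0.99, the proprotein convertase gene Furin by 0.52 and the sheddase gene Adam10 by 0.33. Adam17, another sheddase gene, rose by 0.94. With median centring only Psen2 was lower, and Adam17 and Psenen were higher. On probe sets other than the brightest of their gene, 1 of 4 of Snx6 passed upward with Smo2, and 1 of 2 of Snx27 and 1 of 2 of Ncstn downward. None of these enzymes passed with ICRF-193 or in Chd7 mutant CGNs (1 in each before adjustment, limma).

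Of 5 other endocytic and sorting receptors, 3 of the LDL receptor family were lower with Smo2. Over all genes, dim ones included, 20.5% were lower and 17.2% higher with Smo2. Lrp1 fell by 1.49, Lrp8 by 1.14 and Vldlr by 0.73, while M6pr, the mannose 6-phosphate receptor that like sortilin carries enzymes from the Golgi to endosomes, rose by 0.55. None of the 5 passed with ICRF-193 or in Chd7 mutant CGNs (0 and 3 before adjustment, limma). In mutant CGNs Vldlr had -0.29 (adjusted p = 0.0964) on its brightest probe set, which passed with median centring (adjusted p = 0.0448). Another of its 6 probe sets passed downward in the mutant, and the changes of all 6 lay between -0.48 and -0.27.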

How the data were processed

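The authors deposited a linear signal intensity for each probe set and array, and no detection calls were used. The sources used here name no summarisation software. The mean after trimming 2% at each end was 500 on all 22 arrays, a sign of scaling array by array. Array medians still ranged from 6.33 to 6.81 on the log2 scale. Signals were floored at 16, taken to log2 and quantile normalised, and 64 control probe sets were then left out. limma 3.58.1 (lmFit and eBayes, R 4.3.3) was fitted to the 2 groups of each comparison over 45037 probe sets. Tests were two-sided, p-values were adjusted by Benjamini-Hochberg over all of them, and a call is an adjusted p under 0.05. The fit was tested on simulated data. Annotation gave 1 symbol for 34945 probe sets, several for 932 and none for 9160. None of 231 array pairs was identical.

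The members, lists and tests were chosen with earlier results of these data known. Named genes are all members, the 5 genes most similar to Sorcs1, up to 4 called genes of each list and comparison with the largest change, all neurotrophin genes, and Chd7 as a check. Ap1g1, App, Insr, Psenen, Snx6, Snx27 and Ncstn fall outside this rule and were named after their values were seen. So were the marker genes Atoh1, Rbfox3, Pax6, Neurod1, Zic1, Ccnd1, Cspg4, Xist, Gja1, Gad1, Gad2 and Slc6a5. Top2b, another check, had changes of -0.02, 0.16 and -0.26, none called. Same-numbered arrays deviated together from their group means, with r of 0.31 to 0.35 in the Chd7 comparison and 0.28 to 0.41 in the ICRF-193 comparison. The replicate number was used as a block (the paired fit) among the alternatives. Differently numbered arrays of one set correlated as well (0.27 to 0.36 and 0.32 to 0.34), so these correlations do not single out pairs of equal number. Arrays of different sets correlated by -0.37 to -0.29 and -0.42 to -0.24. Since the deviations are from the group means, the positive values within sets force negative ones between sets, and nothing further is read from these. Alternatives changed the normalization, floor, filter, variance model, test, probe sets and blocks, and left out each array. Precision is limited by the number of arrays. Figures used matplotlib 3.10.9 and Python 3.11.15.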

Additional observations from a re-analysis of the deposited data

Results flagged for a closer look

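Among 48 groups of 4 samples checked, 1 sample stood apart from its group. On the dim Sorl1 probe set 1460390_at, ICRF-193 replicate 1 had 4.73, while the nearest of the other ICRF-193 samples had 5.18, and this gap was 0.84 of the range of the group. Chance sets about 1 in 20 such groups apart. Its deposited signal of 28.0 is close to the floor of 16, and the change of this probe set with ICRF-193 did not pass the test with or without it.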

How the results depend on the processing

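Under the alternatives in which they entered, the changes of Sorcs1 were below 0 and those of Sorcs2 above 0 in all comparisons, but that of Sorcs2 in Chd7 mutant CGNs was 1.86 with a floor of 1 and 0.096 with a floor of 64 (adjusted p = 0.896), against 1.32. Within sets of like arrays the change of Sorcs1 1436662_at in Chd7 mutant CGNs was -0.80 in replicates 1 and 2 and -2.41 in replicates 3 and 4. The rise of Sorcs2 with ICRF-193 was 3.13 with a floor of 1, 0.31 with a floor of 64, 2.07 in the fit with the replicate block, and 2.62 and 1.53 within replicates 1 and 2 and replicates 3 and 4, none past the threshold, and it ranged between 1.89 and 2.32 with single samples left out. Sorcs3 1425110_at passed with ICRF-193 at -0.98 with a floor of 64, and at -1.39 with all arrays in a single fit or the brightest probe set of each gene. Sort1 1423362_at did not pass with Smo2 at -0.17 with arrays centred on their medians.

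Of the 9 paralogue probe sets, 1 passed in the Chd7 comparison when only bright probe sets were tested or sets of like arrays were a block. With ICRF-193 the count was 0 with a floor of 1, with only bright probe sets and within either set, 1 with a floor of 64, with the brightest probe set of each gene or with the replicate block, and 1 to 2 with single samples left out. With Smo2 it was 1 with only bright probe sets or the brightest of each gene. Fewer members were tested in the last 2 settings, since Sorcs2 is dim. The cause of the other changes was not tested.

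Directions turned for small changes that had not passed. Within replicates 1 and 2 they became -0.41 for Sorl1 1453003_at in the Chd7 comparison, and 0.068 for Sorl1 1460390_at and 0.018 for Sort1 1423362_at with ICRF-193. Within replicates 3 and 4 they became 0.13 for Sorcs3 1425110_at, 0.30 for Sorcs3 1425111_at and 0.13 for Sort1 1423363_at in the Chd7 comparison, and -0.11 for Sort1 1450955_s_at with ICRF-193. With single samples left out, Sorl1 1453003_at ran between -0.18 and 0.66 in the Chd7 comparison. With ICRF-193, Sorl1 1426258_at ran between -0.87 and 0.076, Sorl1 1460390_at between -0.24 and 0.14, Sort1 1423362_at between -0.069 and 0.040 and Sort1 1450955_s_at between -0.12 and 0.19. With Smo2, Sorcs3 1425110_at ran between -0.47 and 0.13 and Sort1 1423363_at between -0.23 and 0.017.

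Of all probe sets, 1245 passed in the Chd7 comparison, against 394 in the paired fit, 410 with a floor of 1, 784 with median centring, 1985 with all arrays in a single fit, 2856 with sets as a block, and 537 to 734 with single samples left out. With ICRF-193 876 passed, against 514 in the paired fit, 422 with median centring, 495 with a floor of 1, 1505 with sets as a block and 1815 with all arrays in a single fit. Within either set 0 passed in both comparisons, with 2 samples a group. With Smo2 13487 passed, against 7390 when each gene was tested once. The methods' t-test gave 6470, 4902 and 15933 probe sets at an unadjusted p under 0.05 in the 3 comparisons in that order, and 943, 709 and 11870 after adjustment. In the Smo2 comparison same-numbered arrays correlated by 0.02 to 0.03 and share only a number. There the replicate block ended the calls of Sorl1 1460390_at (adjusted p = 0.0892), Insr, Furin, Adam10 and Psen2. Elsewhere it ended no member's call but that of Sorcs2 with ICRF-193. Values near the floor limit what Sorcs2, Sorcs3 1425111_at and Sorl1 can show.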
